A study of Homo sapiens with 4 samples.

Results

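The histone genes of the HIST clusters were examined in A375 cells, an established BRAF V600E melanoma line. Members were all protein-coding genes whose GENCODE 29 symbol begins with HIST1H, HIST2H, HIST3H or HIST4H and whose identifier is a row in the count tables of all 4 libraries. This gave 71 of the 32991 genes that the tables share: 55 genes of the HIST1 cluster on chromosome 6, 12 of HIST2 and 3 of HIST3 on chromosome 1, and 1 HIST4 gene on chromosome 12. By class there were 6 H1, 17 H2A, 18 H2B, 15 H3 and 15 H4 genes. Single-cell RNA sequencing (10x Genomics v2, which reads transcripts near a poly(A) stretch) had been applied to sensitive, untreated cells (S), to single-agent-resistant cells selected in the BRAF inhibitor vemurafenib (RV), and to double-agent-resistant cells selected in vemurafenib with the MEK inhibitor cobimetinib (RVC) or with the MEK inhibitor trametinib (RVT). Drugs were given for 10 to 14 days and removed 24 h before capture, and 10000 cells were loaded per condition. Each condition has 1 library, so no test between conditions could be made and all intervals below are exact 95% intervals that cover counting error only.

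Core histones H2A, H2B, H3 and H4 form the nucleosome, and linker histone H1 binds where DNA enters and leaves it. Most genes of the HIST clusters are made for DNA replication: NPAT and its partners switch them on as cells pass from G1 into S phase, and the mRNA ends in a stem-loop bound by SLBP in place of a poly(A) tail. When replication ends these mRNAs are degraded. Some of the same genes also make a longer, polyadenylated mRNA that passes the stem-loop and is known from cells that have stopped dividing or are differentiating. Poly(A)-primed methods such as the one used here start at a run of A, in the tail or within the message.

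The stem-loops and the A-rich ends are printed because they mark the tailless end of these messages and the places where priming can start. In the annotated coding transcripts of 31 of the 71 members a stem-loop was found, in 5 forms. The stems are in capitals and the loop in lower case (GRCh38, positions from the GENCODE 29 transcript).
HIST2H2BE (chr1:149886188-149886203, minus strand; 17 members hold this form): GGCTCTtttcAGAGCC
HIST1H2BD (chr6:26158587-26158602, plus strand; 5 members): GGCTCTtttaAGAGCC
HIST1H4H (chr6:26285131-26285146, minus strand; 5 members): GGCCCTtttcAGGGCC
HIST2H4A (chr1:149833032-149833047, plus strand; 3 members): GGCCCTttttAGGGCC
HIST1H3E (chr6:26225596-26225611, plus strand; 1 member): GGCTCTtctcAGAGCC
The forms of HIST2H2BE, HIST1H2BD and HIST1H3E were found in H2A, H2B and H3 genes, and those of HIST1H4H and HIST2H4A in H4 genes. In 22 members an annotated transcript runs 100 bases or more past the stem-loop, in HIST2H2BE by 1729 bases and in HIST1H2AC by 1114. In 35 members the annotation ends at the stop codon, so for these no 3' untranslated bases could be read.

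A stretch of 20 bases with at least 18 A occurred in the annotated transcript of 2 of the 71 members, against 8.73% of 19922 protein-coding genes. Both are printed with A in capitals, as the last 30 bases of the transcript or the stretch around the A run.
HIST1H4C (chr6:26104281-26104310, plus strand, the transcript end): tgAgAActtcAAAAAAcAAAAAcAAAAAAA
HIST1H2BG (chr6:26215164-26215193, minus strand): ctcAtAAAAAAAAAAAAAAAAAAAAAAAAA
HIST1H4C, an H4 gene whose annotated transcript held no stem-loop, was the member with by far the most UMIs. In GENCODE 29 its gene (ENSG00000197061) is chr6:26103876-26104310 on the plus strand. The next members by level were HIST1H1C (ENSG00000187837, chr6:26055787-26056428, minus strand), HIST3H2A (ENSG00000181218, chr1:228456979-228457873, minus strand) and HIST1H1D (ENSG00000124575, chr6:26234268-26234933, minus strand). These had at most 12, 9 and 13 A in 20 bases. The cut of 18 is the value of HIST1H4C itself, and HIST1H2BG had 20.

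After filtering, the libraries held 6334 (S), 4177 (RV), 7628 (RVC) and 8446 (RVT) cells with 25390117 to 58519152 UMIs in total, and a median of 8799.5 (S), 11553 (RV), 3958 (RVC) and 2864 (RVT) UMIs per cell. The tables of S and RV list 33694 genes and those of RVC and RVT 33538, so the latter pair was counted with another gene annotation and at lower depth, and neither can be told apart from the drugs in a comparison with S. RV over S and RVT over RVC each stay within 1 annotation. Pairs of libraries shared 36 to 103 cell barcodes. In UMIs per 1000000 UMIs of the library (CPM), AXL (78.5 to 170) and VIM (331 to 2590.4), which undifferentiated melanoma cells express, were present in each library. SOX10, a melanocyte lineage factor, had 0 UMIs in RVC and 19.7 to 86.5 CPM in the others. The library labelled RVC thus stands apart in a gene that marks the line in the other libraries, so each value set against RVC rests on that label, while RV over S and RVT over S do not use it. MLANA, TYR, DCT and PMEL, pigment cell genes, were at 0.46 CPM or less. MITF, the remaining gene of the 8 listed as markers of the line, had a mean of at least 1 CPM over the libraries. Of the markers of other cell types PTPRC and ALB had 0 UMIs and CDH5, EPCAM and PECAM1 were at 1.21 CPM or less.

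The CPM values count captured 3' ends, not whole histone mRNA, and were not divided by length. The members together had 3481 CPM in the sensitive library (3466 to 3496), 3329.8 in RV (3314 to 3345), 6578 (6549.99 to 6605) in RVC and 663 (653 to 673) in RVT. The double-agent-resistant libraries thus lay on either side of S, RVC 1.89-fold above it (1.88 to 1.90) and RVT 5.25-fold below it (5.17 to 5.33), while RV lay 1.05-fold below (1.04 to 1.05). HIST1H4C alone gave 93.0% (S), 91.3% (RV), 97.3% (RVC) and 55.9% (RVT) of these UMIs. Without it the other 70 members had 242 CPM (S), 290 (RV), 176 (RVC) and 292 (RVT), so the order of the libraries was not that of HIST1H4C. Of the 71 members, 61 had at least 1 UMI, 10 had none, and 21 reached a mean of 1 CPM over the libraries. The 50 members below that mean enter the class sums and, where they reached 1 CPM in a single library, the counts within that library (such as HIST3H2BB in RV, HIST1H2BH in RVC and HIST1H3E in RVT). The highest of them had a mean of 0.94 CPM.

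**Figure D1:**
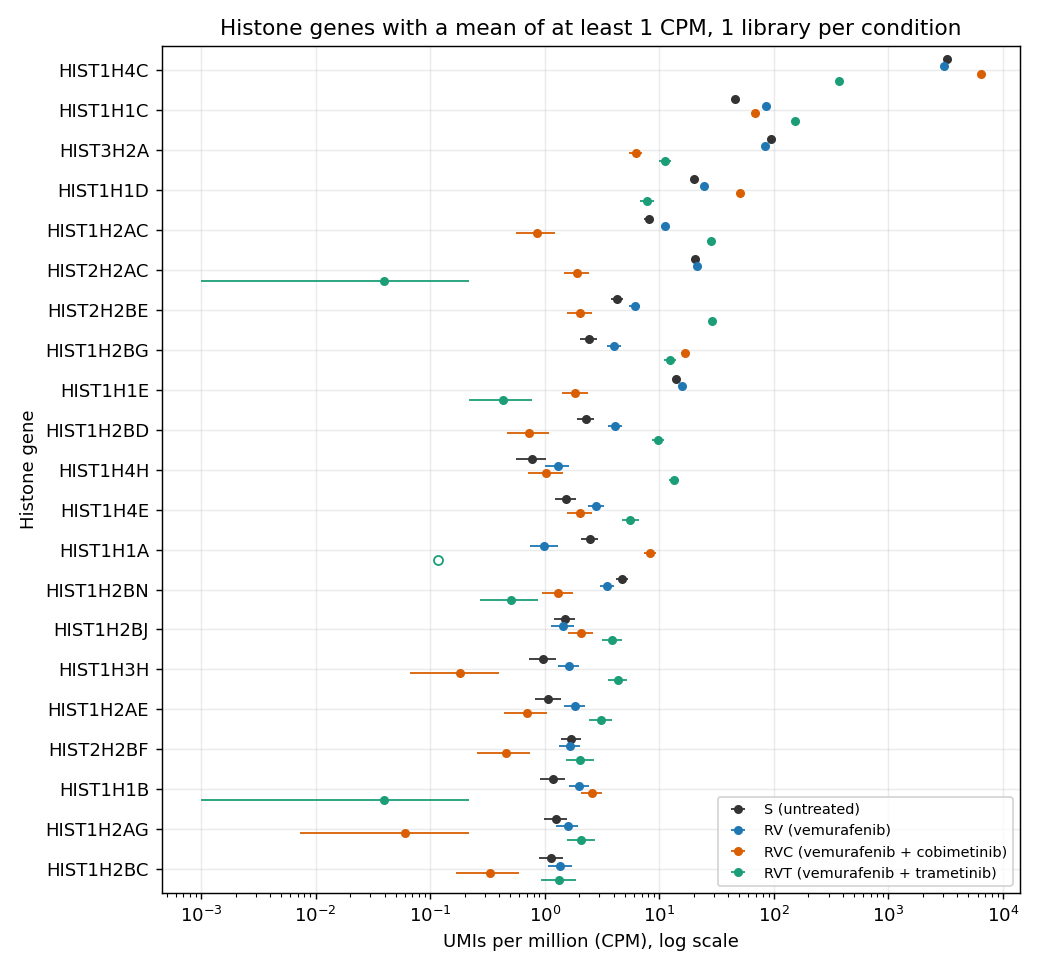
CPM (log axis) of the 21 histone genes with a mean of at least 1 CPM, 1 point per library with exact 95% Poisson intervals, and an open circle at the level of 3 UMIs where a library had none. HIST1H4C stands from 371 to 6402 CPM, HIST3H2A and HIST2H2AC lie highest in S and RV, and HIST2H2BE and HIST1H2AC lie highest in RVT.

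Among the H1 genes, HIST1H1C, a linker histone gene (protein H1.2), was the highest, with 45.4, 84.98, 68.1 and 153 CPM in S, RV, RVC and RVT. All 3 resistant libraries were above S, RV by 1.87-fold (1.79 to 1.97), RVC by 1.50-fold (1.42 to 1.59) and RVT by 3.37-fold (3.21 to 3.54). HIST1H1D (H1.3) had another order, with 20.1 CPM (S), 24.4 (RV), 50.8 (RVC) and 7.84 (RVT). HIST1H1A (H1.1) had 2.48, 0.99, 8.28 and 0 CPM in the same order, and was past 2-fold between RV and S, alone among the 21 members with a mean of 1 CPM or more. HIST1H1B (H1.5) had 1.18, 2.00, 2.58 and 0.039 CPM, with 1 UMI in RVT. HIST1H1E (H1.4) had 14.1, 15.7, 1.85 and 0.43 CPM. RVC was therefore highest in 3 of the 5 H1 genes with a mean of 1 CPM or more and RVT in 1, HIST1H1C. As a class, H1 had 83.2, 128, 132 and 161 CPM in S, RV, RVC and RVT.

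Most H2A UMIs were in S and RV. HIST3H2A, an H2A gene outside the main cluster, had 94.3 CPM (S), 83.97 (RV), 6.22 (RVC) and 11.3 (RVT). HIST2H2AC had 1196, 1119, 63 and 1 UMIs in S, RV, RVC and RVT, or 20.4, 21.3, 1.91 and 0.039 CPM. HIST1H2AC behaved differently, with 8.10 CPM (S), 11.2 (RV), 0.85 (RVC) and 28.0 (RVT), so RVT was 33.0-fold above RVC (22.6 to 49.99). HIST1H2AM had 62 UMIs in S and 62 in RV and 0 in RVC and in RVT, which leaves it at least 11.6-fold lower in RVC and at least 8.97-fold lower in RVT than in S when 0 is set at 3 UMIs. HIST1H2AH had 86, 76, 2 and 0 UMIs in S, RV, RVC and RVT. Summed over the 17 genes, H2A had 129 CPM (S), 124 (RV), 10.2 (RVC) and 44.6 (RVT).

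The H2B sum was highest in RVT, though not every H2B gene was. HIST2H2BE, an H2B gene with a long polyadenylated transcript, had 4.27, 6.08, 2.03 and 29.1 CPM in S, RV, RVC and RVT, which placed RVT 6.81-fold above S (5.89 to 7.90) and 14.3-fold above RVC (11.1 to 18.7). HIST1H2BD had 2.29, 4.10, 0.73 and 9.77 CPM in the same order. HIST1H2BG, whose transcript holds the A run printed above, had 2.43 CPM (S), 4.02 (RV), 16.9 (RVC) and 12.4 (RVT). The class sum was 21.2, 25.9, 27.7 and 60.1 CPM in S, RV, RVC and RVT.

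H3 genes had few UMIs, with 3.32 CPM (S), 3.72 (RV), 1.18 (RVC) and 5.99 (RVT) over 15 genes. The highest, HIST1H3H, had 56, 85, 6 and 110 UMIs in S, RV, RVC and RVT. H4 genes apart from HIST1H4C summed to 5.28 CPM (S), 7.76 (RV), 5.00 (RVC) and 20.4 (RVT). HIST1H4C had 3238, 3039.9, 6402 and 371 CPM in S, RV, RVC and RVT, so RVC was 1.98-fold above S (1.97 to 1.99) and RVT 8.73-fold below S (8.55 to 8.91), while RVT was 17.3-fold below RVC (16.9 to 17.6). RVT thus had the least HIST1H4C and the most of the other H4, H3 and H2B genes.

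**Figure D2:**
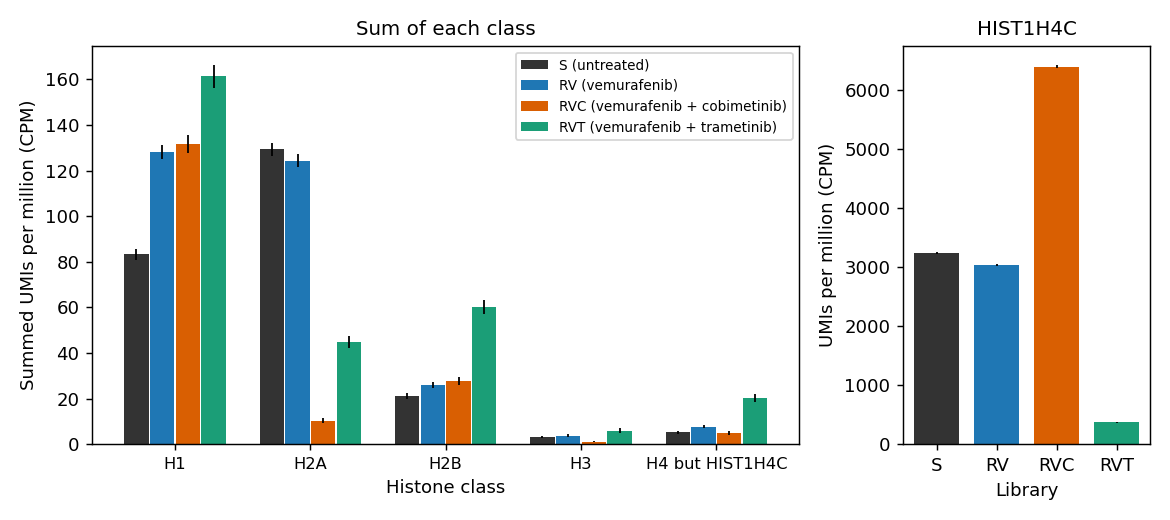
Summed CPM of each histone class in the 4 libraries, with HIST1H4C on its own axis at the right, 1 library per bar with exact 95% Poisson intervals, both axes from 0. H2A stands at 129 and 124 CPM in S and RV and at 10.2 and 44.6 in RVC and RVT, and HIST1H4C at 6402 CPM in RVC and 371 in RVT.

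Of the 21 members with a mean of 1 CPM or more, 0 were more than 2-fold higher and 1 was more than 2-fold lower in RV than in S, beside 3.46% and 3.19% of all 12679 genes with that mean. In RVC over S, 4 members were higher and 11 lower (23.8% and 22.3% of all genes), and the median member had a log2 ratio of -1.07 against 0.21 over all genes. In RVT over S, 10 were higher and 8 lower (34.1% and 21.7%), with a median of 0.74 against 0.40. In RVT over RVC, which share an annotation, 11 were higher and 7 lower (21.7% and 12.2%), with a median of 1.17 against 0.29. The 11 higher in RVT than in RVC were HIST1H1C and members of H2A, H2B, H3 and H4, among them HIST1H2AC, HIST2H2BE, HIST1H2BD, HIST1H4H and HIST1H3H, and the 7 lower were HIST1H4C, HIST2H2AC, HIST1H2BN and 4 of the H1 genes. TMM scaling moved the median of all genes in RVT over S from 0.40 to -0.11, and it turned the sum of the members other than HIST1H4C in RVT over S from a log2 ratio of 0.27 to -0.24. Both RVC and RVT were more than 2-fold below both S and RV in HIST2H2AC, HIST3H2A, HIST1H1E and HIST1H2BN, and more than 2-fold above in HIST1H2BG, beside 13.8% and 13.2% of all genes. Centring on GC content (10 bins) moved HIST2H2AC in RVC over S from -3.42 to -1.76. The last 500 bases of its transcript, or all of them where shorter, held 62.8% G and C.

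Relation to the cell cycle was then read within each library. Every cell was thinned at random to 1500 UMIs, and the UMIs of 43 G1/S genes (replication genes such as MCM5 and PCNA, none of them a HIST gene) and of 54 G2/M genes were counted. Cells with at least 3 G1/S UMIs (S-gene-high) were compared with cells that had none (S-gene-zero). S-gene-high cells were 19.9% of S (1261 of 6334 cells), 29.4% of RV (1230 of 4177), 34.3% of RVC (2479 of 7231) and 4.88% of RVT (371 of 7602). The 397 RVC and 844 RVT cells with fewer than 1500 UMIs were left out. S-gene-high cells also had more G2/M UMIs than S-gene-zero cells, with medians of 3 against 1 in S, 4 against 1 in RV, 7 against 4 in RVC and 7 against 1 in RVT.

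HIST1H4C was higher in S-gene-high than in S-gene-zero cells of every library. It had 6031 against 1609 CPM in S, 5414 against 1275 in RV, 7163 against 5158 in RVC and 1518 against 267 in RVT. These are ratios of 3.75 (3.70 to 3.80), 4.25 (4.18 to 4.31), 1.39 (1.37 to 1.41) and 5.68 (5.379 to 6.003). Of all genes tested outside the G1/S list, 128 of 11922 had a higher ratio in S, 70 of 11976 in RV, 1425 of 12009 in RVC and 166 of 12519 in RVT. S-gene-high cells of RVT had 3.97-fold less HIST1H4C than those of S (3.80 to 4.15). S-gene-zero cells of RVC had 3.21-fold more than those of S (3.16 to 3.26). Neither comparison was matched for G2/M UMIs. At 3 to 4 G1/S and 0 to 1 G2/M UMIs, HIST1H4C was 225 CPM in RVT and 2718 in S. At 5 to 9 G2/M UMIs these were 3567 and 7950. At 0 G1/S and 0 to 1 G2/M UMIs, it was 1542 CPM in RVC and 1000 in S. At 2 to 4 G2/M UMIs these were 3783 and 1859. With cells of at most 4 G2/M UMIs only, the log2 ratio of HIST1H4C went from 2.51 to 0.64 in RVT and from 0.47 to 1.15 in RVC. This restriction also leaves fewer cells, and the cause of the change was not tested.

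HIST1H1D had the same direction in each library, with 37.3 against 9.63 CPM in S, 44.3 against 8.26 in RV, 55.8 against 38.7 in RVC and 26.1 against 5.49 in RVT. With at most 4 G2/M UMIs its log2 ratio went from 0.53 to 1.28 in RVC and from 2.25 to 0.53 in RVT. HIST2H2AC was higher in S-gene-high cells by 4.84-fold in S (4.06 to 5.79) and 4.41-fold in RV (3.63 to 5.39), and in RVC its 23 UMIs in S-gene-high and 5 in S-gene-zero cells gave 2.42-fold with an interval that holds 1 (0.90 to 8.14). The members with the highest ratios, averaged over those libraries where a ratio could be made, were HIST1H2AM, HIST1H2AH and HIST1H1B. The first of these and HIST1H2AH had a ratio in S and RV only, and HIST1H1B in S, RV and RVC, so the averages rest on unlike sets of libraries. In the order named they were 8.84-, 4.42- and 6.83-fold higher in S and 11.2-, 6.85- and 9.58-fold higher in RV, each on 3 to 12 UMIs in the S-gene-zero cells. HIST1H1B in RVC was 1.89-fold higher with an interval that holds 1 (0.92 to 4.28).

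At the other end, HIST2H2BE was lower in S-gene-high cells, with 2.33 against 5.64 CPM in S, 1.80 against 11.1 in RV, 1.20 against 2.45 in RVC and 13.4 against 31.0 in RVT. The interval of its ratio lay below 1 in S (0.26 to 0.63), RV (0.10 to 0.24) and RVT (0.25 to 0.69) and held 1 in RVC (0.21 to 1.12). HIST1H2BD was 0.35-fold in S (0.18 to 0.64), where counting thinned UMIs only turned its log2 ratio from -1.52 to 0.27. It was 0.19-fold in RV (0.11 to 0.31) and 0.56-fold in RVT with an interval that holds 1 (0.24 to 1.14). HIST1H2AC was 0.65-fold in S (0.49 to 0.87), 0.30-fold in RV (0.23 to 0.38) and 0.43-fold in RVT (0.24 to 0.71). HIST3H2A, the most abundant H2A gene in S and RV, had 89.2 against 94.9 CPM in S, 77.3 against 96.8 in RV, 5.89 against 7.53 in RVC and 5.96 against 11.2 in RVT, where the ratio was 0.53-fold with an interval that holds 1 (0.23 to 1.08). HIST1H3H was 0.43-fold in RV (0.24 to 0.76) and its intervals held 1 in S and RVT. In RVT, with at most 4 G2/M UMIs, the log2 ratio of HIST2H2BE went from -1.21 to -0.29 and that of HIST1H2AC from -1.22 to 0.067.

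**Figure D3:**
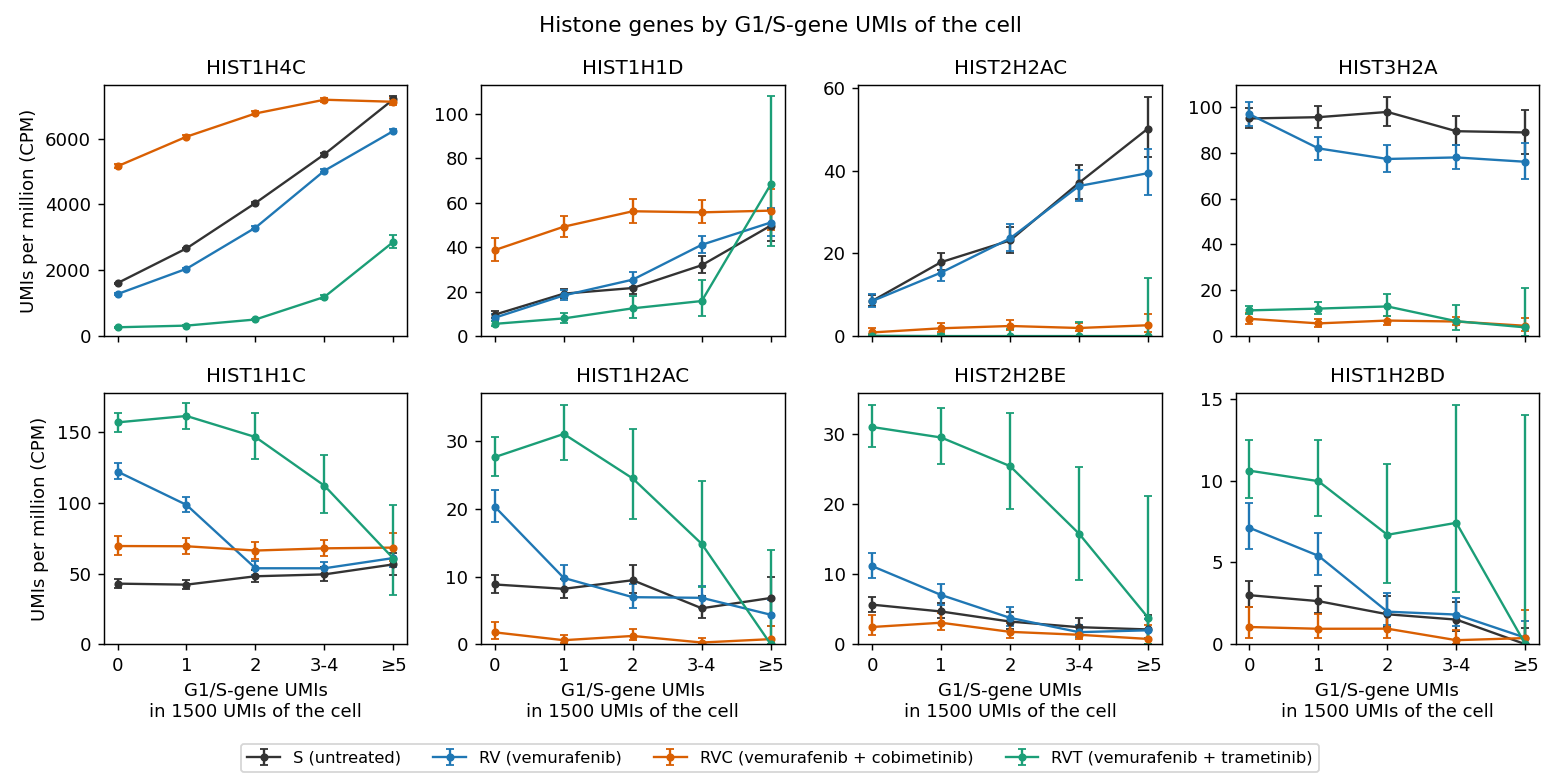
CPM of 8 histone genes (panels, each with its own linear axis from 0) by the number of G1/S-gene UMIs among 1500 UMIs of the cell, 1 line per library with exact 95% Poisson intervals. HIST1H4C, HIST1H1D and HIST2H2AC climb with G1/S UMIs in S and RV, HIST1H4C in RVC starts at 5158 CPM and ends at 7116, and HIST1H1C, HIST1H2AC and HIST2H2BE in RV and RVT are highest in cells with 0 or 1 G1/S UMIs.

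Counted over members with at least 1 CPM in the library, 9 were more than 2-fold higher and 3 lower in S-gene-high cells of S, out of 21 (4.79% and 1.44% of all genes tested). In RV 7 were higher and 9 lower out of 24 (5.35% and 2.63%), in RVC 2 and 2 out of 15 (1.83% and 1.38%), and in RVT 2 and 6 out of 17 (7.6% and 5.38%). Calls were made on the ratio and not on its interval. In RVC 0 members had an interval below 1, and that of HIST2H2AC, called higher, held 1. Of the 6 lower in RVT, at most 3 had an interval below 1. The shares over all genes were not matched for level. The median log2 ratio of the members was 0.31 in S against 0.09 for all genes, -0.60 in RV against 0.14, -0.0019 in RVC against 0.06 and -0.83 in RVT against 0.08. These counts were not stable in every library. With cells of at most 4 G2/M UMIs only, they were 6 and 0 of 15 in RVC (7.04% and 5.19% of all genes) and 0 and 0 of 17 in RVT (7.11% and 4.47%). With thinned UMIs counted, the lower members were 1 in S, 0 in RVC and 0 in RVT (5.81%, 3.48% and 5.33% of all genes), and without doublet removal RVC had 0 and 0 (1.78% and 1.02%). The sum of the members without HIST1H4C did not share its ratios. It was 1.42-fold (1.36 to 1.49) in S, 0.90-fold (0.87 to 0.94) in RV, 1.18-fold (1.09 to 1.28) in RVC and 0.67-fold (0.59 to 0.76) in RVT.

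HIST1H1C did not keep 1 direction. In S-gene-high against S-gene-zero cells it had 51.6 against 42.9 CPM in S, 56.1 against 122 in RV, 68.0 against 69.5 in RVC and 102 against 157 in RVT. The ratio lay above 1 in S (1.08 to 1.33), below 1 in RV (0.42 to 0.50) and RVT (0.54 to 0.77), and held 1 in RVC (0.865 to 1.11). With at most 4 G2/M UMIs its log2 ratio was 0.065 in S, -1.62 in RV and 0.0045 in RVT, so the lower value remained in RV and not in RVT. Set between libraries, RV exceeded S by 2.85-fold in S-gene-zero cells (2.63 to 3.10) and by 1.09-fold in S-gene-high cells, where the interval holds 1 (0.98 to 1.21). HIST1H2AC went the same way between RV and S, 2.30-fold in S-gene-zero cells (1.91 to 2.79) and 1.05-fold in S-gene-high cells (0.76 to 1.44). HIST2H2BE in RV was 1.98-fold above S in S-gene-zero cells (1.55 to 2.53) and 0.77-fold in S-gene-high cells (0.44 to 1.35). For these 3 members the interval of RV over S thus lay above 1 in S-gene-zero cells and held 1 in S-gene-high cells, and the difference between the cell groups was not tested.

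Cells with at least 10 G2/M UMIs were compared with cells with 0 or 1, both with at most 2 G1/S UMIs. HIST1H4C had 4258 against 1171 CPM in S, 3661 against 729 in RV, 5997 against 1847 in RVC and 1486 against 246 in RVT. HIST1H1C had 41.6 against 41.9 CPM in S, 39.8 against 127 in RV, 50.4 against 93.3 in RVC and 56.0 against 162 in RVT. Members past 2-fold numbered 10 higher and 1 lower of 21 in S (5.96% and 7.17% of all genes), 7 and 10 of 24 in RV (7.18% and 8.21%), 5 and 2 of 15 in RVC (9.17% and 4.35%) and 3 and 7 of 17 in RVT (9.55% and 8.4%). Among cells with at most 2 G1/S UMIs, HIST1H4C was highest in cells with 5 to 9 in S (6565 CPM), RV (5426) and RVC (8136), and in RVT it was 1044 CPM there and 1486 in cells with 10 or more. In the cells with neither G1/S UMIs nor more than 1 G2/M UMI, HIST1H4C was at 1000.3 CPM in S (1505 cells), 602 in RV (726), 1542 in RVC (252) and 246 in RVT (2938), so the order of the libraries was also present among these cells. Along the G1/S counts the level did not climb in every row of this grid. In RVT cells with 0 or 1 G2/M UMIs it was 246 CPM at 0 and 225 CPM at 3 to 4 G1/S UMIs (103 cells), and in RVC cells with at least 10 G2/M UMIs it was 6038 and 5597 CPM (510 cells). When every library was given the mix of G1/S and G2/M bins of S, an arrangement chosen after the values were seen, HIST1H4C was 1.32-fold higher in RVC and 4.39-fold lower in RVT than in S, instead of 1.98- and 8.73-fold. Its level in RV was then 2441 CPM, 1.33-fold below S. These values at the mix of S have no interval, and the smallest RVT bin held 4 cells. The RVT bins highest in HIST1H4C held 21 and 16 cells (3567 and 4205 CPM), where S had 248 and 165 cells. The RVT value at this mix thus rests in part on few cells. The 397 RVC and 844 RVT cells left out of thinning enter the 1.98- and 8.73-fold only.

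**Figure D4:**
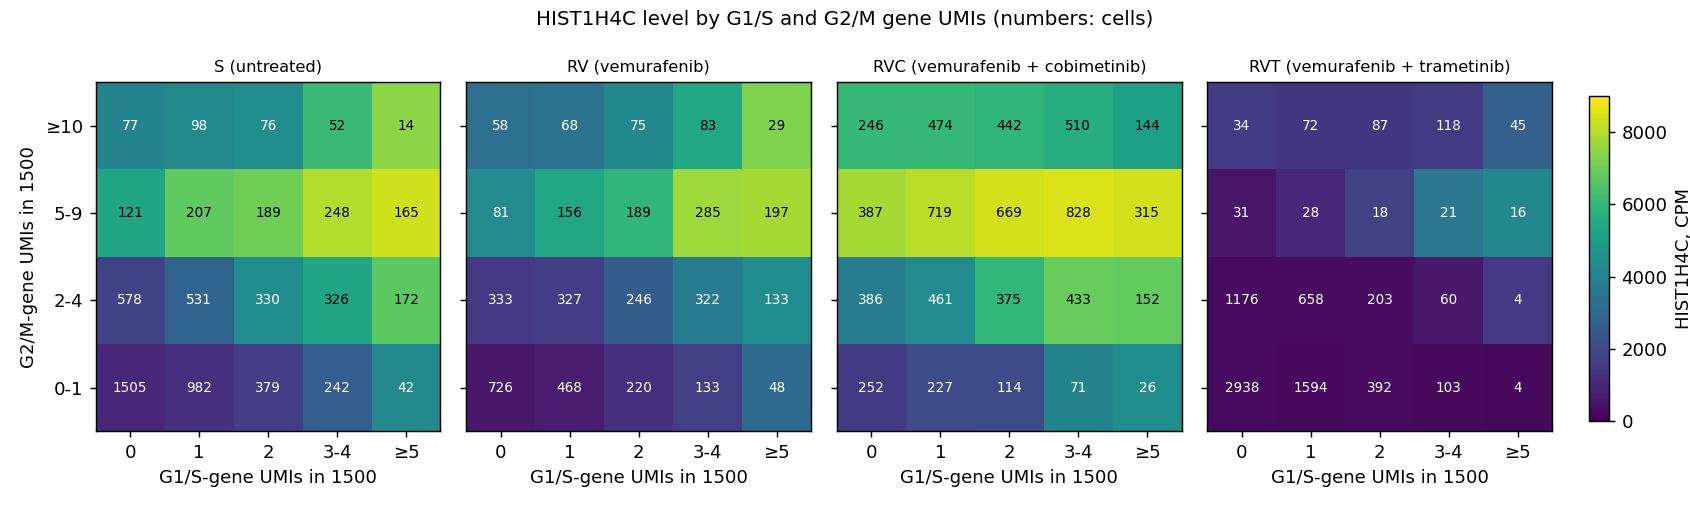
HIST1H4C level (color, linear, CPM) by G1/S-gene UMIs (horizontal) and G2/M-gene UMIs (vertical) among 1500 UMIs of the cell, 1 panel per library, with the number of cells in each field. Cells with 5 to 9 G2/M UMIs are brightest in S, RV and RVC, and in RVT the level is 1756 CPM or less outside the fields with at least 3 G1/S and 5 G2/M UMIs.

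Per cell, thinned to 1500 UMIs, HIST1H4C had a median of 2 UMIs in S and RV, 6 in RVC and 0 in RVT. Cells with 10 or more UMIs were 16.8% of S, 17.2% of RV, 37.5% of RVC and 0.42% of RVT (32 of 7602 cells). With 1 cell line per library, the UMIs that free RNA adds could not be measured. Across cells, HIST1H4C UMIs had a Pearson coefficient with G1/S UMIs of 0.43 in S (6334 cells), 0.40 in RV (4177), 0.10 in RVC (7231) and 0.31 in RVT (7602), all points of a library sharing that library and a fixed depth. The Spearman coefficients were 0.40, 0.46, 0.15 and 0.10. With G2/M UMIs the Pearson coefficients were 0.40, 0.38, 0.079 and 0.36 and the Spearman coefficients 0.48, 0.53, 0.18 and 0.11, so HIST1H4C was not tied to G1/S UMIs more than to G2/M UMIs in every library. For the other members together the Pearson coefficient with G1/S UMIs was between -0.03 and 0.06. They had 176 to 292 CPM between them, so few UMIs in a cell thinned to 1500, which limits this coefficient. The sum also joins members higher and members lower in S-gene-high cells, so it does not speak for single members.

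What the rule did not use, the annotated length after the stop codon, was set beside these ratios. The split at 100 bases was chosen after the values were seen. In S, 8 of the 9 tested members with under 100 annotated bases after the stop codon were more than 2-fold higher in S-gene-high cells, against 1 of the 12 with 100 or more, beside 4.79% of all genes, and the members of the first kind had a median log2 ratio of 2.14 against -0.11. In RV these were 7 of 8 against 0 of 16, beside 5.35% of all genes, with medians of 2.28 and -1.10. In RVC they were 2 of 7 against 0 of 8 (1.83% of all genes), and in RVT 2 of 3 against 0 of 14 (7.6%). The calls in these latter libraries were lost under an alternative, since RVT had 0 of 3 against 0 of 14 with at most 4 G2/M UMIs and RVC had 0 of 7 against 0 of 8 without doublet removal. With at most 4 G2/M UMIs, RVC had 4 of 7 against 2 of 8, beside 7.04% of all genes. Among the shorter members tested, HIST1H1C, with 0 annotated bases, was the exception in S, RV and RVT. The same split was set beside the library ratios. Of the 14 members with 100 bases or more and a mean of 1 CPM, 10 were higher and 1 was lower in RVT than in RVC. Of the 7 with fewer, 1 was higher and 6 were lower, beside 21.7% and 12.2% of all genes. In RVC over S these were 1 and 9 against 3 and 2 (23.8% and 22.3%). In RVT over S they were 9 and 2 against 1 and 6 (34.1% and 21.7%). In RV over S they were 0 and 0 against 0 and 1 (3.46% and 3.19%). All 6 H1 genes are of the shorter kind, 5 of them among these 7. The split is therefore partly one of H1 against core histones, also in the cell-group counts above. In RVT over RVC, the division by a stem-loop passed by 100 bases or more gave 7 higher and 1 lower of 10 against 4 and 6 of 11. These 10 are all among the 14 counted above, so this is not a separate observation. The missing 3' ends of the shorter models, and reads that fall beyond them, were not tested.

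**Figure D5:**
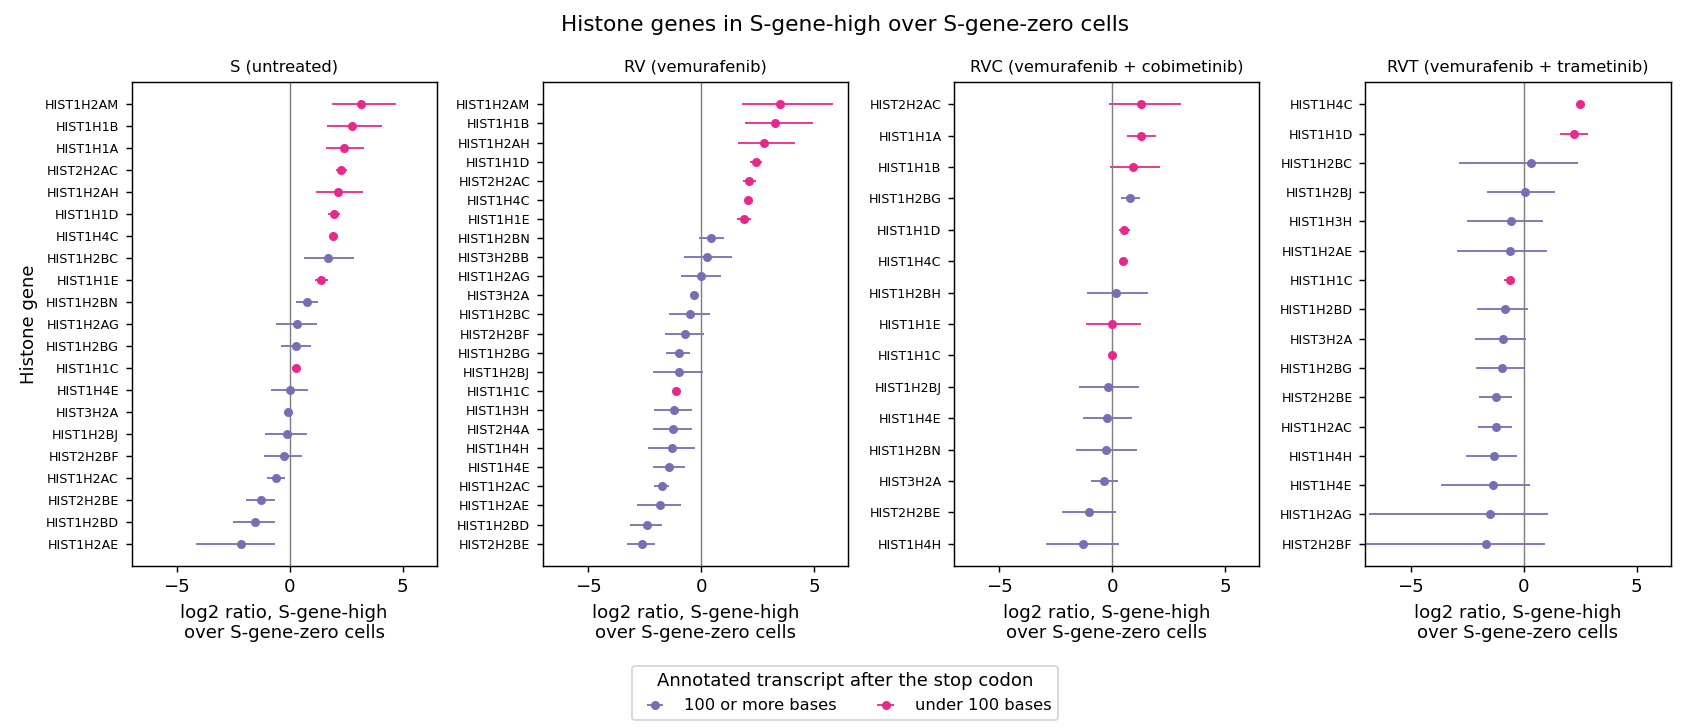
Log2 ratio of S-gene-high over S-gene-zero cells (horizontal) for the members tested in each library, ordered by value, with exact 95% intervals for counting error, colored by whether the annotated transcript has 100 or more bases after the stop codon; members without UMIs in 1 of the cell groups are left out. In RV the 7 members more than 2-fold higher are all of the shorter kind and in S 8 of 9 are, while HIST1H1C, also shorter, lies among the longer ones.

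HIST2H2BE and HIST2H2AC lie side by side on chromosome 1 and are transcribed away from each other, with 322 bases between their GENCODE 29 starts. In RefSeq, used for the windows below, both genes start within this stretch, so those starts lie closer together. This pair was chosen after its values were seen. HIST2H2AC was higher and HIST2H2BE lower in S-gene-high cells of S and RV, and RVT over RVC was 14.3-fold higher for HIST2H2BE while HIST2H2AC had 63 UMIs in RVC and 1 in RVT. The 150 bases before each start are printed because the windows share 65 bases, yet the genes differ in these readouts (RefSeq starts, GRCh38.p14; capitals mark the TATA box TATAAA, the CCAAT box and the octamer ATTTGCAT, each on either strand).
HIST2H2BE (chr1:149886683-149886832, minus strand): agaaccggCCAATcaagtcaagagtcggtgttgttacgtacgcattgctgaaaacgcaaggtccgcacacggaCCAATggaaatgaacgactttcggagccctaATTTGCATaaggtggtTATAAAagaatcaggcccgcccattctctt
HIST2H2AC (chr1:149886768-149886917, plus strand): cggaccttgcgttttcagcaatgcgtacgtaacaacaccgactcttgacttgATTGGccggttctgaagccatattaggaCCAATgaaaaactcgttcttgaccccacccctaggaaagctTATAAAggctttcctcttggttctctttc
Promoters of 61 members were matched in RefSeq, and that of HIST1H4C was not among them. Within the 250 bases before the start, TATAAA was found in 40 of them (10.7% of 35116 promoters of all genes), CCAAT in 51 (32.0%) and ATTTGCAT, the octamer known from H2A and H2B promoters, in 26 (1.63%). The octamer was found in 11 of 14 H2A and 14 of 18 H2B promoters, in 1 of 10 H3 and in 0 of the 6 H1 and 13 H4 promoters. The H3 promoter with it, of HIST1H3D, has the same window as that of HIST1H2AD. Windows of neighbouring H2A and H2B genes also overlap, so these counts are not of independent promoters. Both members printed hold all 3 within those 250 bases. The windows of 250 bases of this pair cover mostly the same stretch and were searched on either strand. The octamer printed for HIST2H2BE thus also lies in the window of HIST2H2AC, upstream of the bases printed for it. These letters could therefore not separate the genes.

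Some members cannot be told apart by their coding bases. HIST2H4A and HIST2H4B, HIST2H3A and HIST2H3C, HIST2H2AA3 and HIST2H2AA4, and HIST1H4J and HIST1H4K are pairs with identical coding sequence, and within a class, members of equal coding length were 77.7% identical or more. Their UMIs are uncertain as to which copy they belong to. HIST2H4A had 54 UMIs (S), 92 (RV), 2 (RVC) and 7 (RVT), and HIST2H3A, HIST2H3C and HIST1H4K had none. HIST1H2BN, HIST1H2AL, HIST1H3J and HIST1H2AM overlap another histone gene on the same strand, and HIST2H2BF overlaps AC243772.2, so their UMIs may be shared. HIST1H3D and HIST1H2AD, which are among the 10 members without UMIs, overlap AL031777.3 on the same strand.

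Genes of histone supply were listed in 3 groups, of transcription and 3' processing (15 genes), of chaperones (22) and of variants outside the clusters (12). In RV over S, 0 of them were past 2-fold in either direction, beside the 3.46% and 3.19% of all genes given above. Over all genes the shares higher and lower were 23.8% and 22.3% in RVC over S and 34.1% and 21.7% in RVT over S. Among processing genes, 1 was higher and 2 were lower in RVC than in S, and 2 and 2 in RVT, with median log2 ratios of 0.28 and 0.21 against 0.21 and 0.40 for all genes. LSM10, a part of the U7 particle that cuts histone mRNA, had 90.4, 88.2, 19.1 and 33.8 CPM in S, RV, RVC and RVT. SLBP, the stem-loop binder, had 19.9 CPM (S), 28.4 (RV), 32.4 (RVC) and 24.9 (RVT) and stayed within 2-fold of S. Among chaperones, 6 were higher and 0 lower in RVC than in S, and 1 and 3 in RVT (medians 0.26 and 0.19), and the 6 higher of 22 are near the share of all genes. ASF1B, which hands H3-H4 to the replication machinery, had 20.97, 32.0, 31.3 and 3.35 CPM in S, RV, RVC and RVT, and NASP, which holds soluble H3-H4, had 55.3, 52.3, 147 and 64.8 CPM. CHAF1A, of the CAF-1 complex, had 19.7, 24.3, 20.5 and 3.43 CPM. Among variants, 2 were higher and 4 lower in RVC than in S, and 0 and 6 in RVT (medians -0.65 and -0.90). H2AFZ (H2A.Z) had 687 CPM (S), 819 (RV), 2365 (RVC) and 611 (RVT), and H2AFJ had 30.8, 24.5, 7.58 and 0.16. The 43 G1/S genes themselves, 42 of them tested, had 9 higher and 4 lower in RVC than in S, and 0 higher and 23 lower in RVT (medians 0.65 and -1.35). NASP and SLBP are also among them.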

How the data were processed

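The authors captured A375 cells on the 10x Genomics Chromium with v2 chemistry and processed reads with bcl2fastq 2.20.0.422 and Cell Ranger against GRCh38, per the labels. What the authors deposited are raw UMI counts, whole numbers for each gene in each barcode; counting strand, annotation and filters are not given in the sources used here. The tables of RVC and RVT held as many barcodes as the study's text gives cells, and those of S and RV held more.

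Barcodes with under 500 genes or over 20% mitochondrial UMIs were removed, then those with the highest Scrublet scores at 0.8% per 1000 barcodes (scanpy 1.11.5, Python 3.11.15). UMIs were summed per library, 1 per condition, and divided by the library total. Ratios had exact binomial intervals (SciPy 1.17.1). A gene with 0 UMIs was set at 3 UMIs, and no ratio was made where both counts were 3 or fewer. TMM factors came from edgeR 4.0.16 and cell cycle genes from Seurat 5.3.0 (R 4.3.3). Ratio and thinning code was tested on simulated data.

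Named members had a mean of at least 10 CPM, led their class, or were among the 3 highest or 3 lowest S-gene ratios with at least 100 UMIs, or were identical copies; of the other lists, those of highest level or change. Genes named beyond the rule were chosen after their values were seen. The members and lists were chosen with earlier results of these data known. Identity was computed on coding bases. Alternatives were other cell filters, scalings, low-level filters and cell-group cuts.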

Additional observations from a re-analysis of the deposited data

Results flagged for a closer look

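HIST1H1C in S-gene-high over S-gene-zero cells stood above 1 in S (ratio 1.20) and below 1 in RV (0.46) and in RVT (0.65). It was marked because its intervals for counting error lay on opposite sides of 1 in different libraries. The difference between libraries was not tested, since each condition has 1 library. With cells of at most 4 G2/M UMIs only, its log2 ratio was 0.07 in S, -1.62 in RV and 0.0045 in RVT. S-gene-high cells had a median of 3 G2/M UMIs in S, 4 in RV and 7 in RVT, and the part of this in the ratio was not tested further. No group had more than 1 library, so no search for samples far from their group was possible.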

How the results depend on the processing

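No paired analysis was possible because each condition has 1 library, and for the same reason no library could be left out. No alternative turned the direction of the member sum between libraries or between cell groups. The RVT values at the bin mix of S rest on bins of as few as 4 cells. As log2 ratios of the member sum between libraries (RV over S, RVC over S, RVT over S and RVT over RVC, reported as -0.06, 0.92, -2.39 and -3.31), values outside the counting interval were -0.11, 0.71, -2.91 and -3.61 with TMM scaling, -0.12, 0.77, -2.43 and -3.20 without ribosomal and mitochondrial genes in the library sizes, and -0.35, 0.35, -1.79 and -2.14 at the bin mix of S. They were -0.053 and 0.93 for the first pair with all barcodes, -0.041, 0.97 and -2.33 for the first 3 with equal weight for every cell, 0.96, -2.31 and -3.27 for the last 3 with at least 1000 genes per cell, and 0.86 and -3.48 for RVC over S and RVT over RVC with GC centring. Member counts between libraries, higher and lower, moved by over 1.5 times without a filter beyond 3 UMIs (RV over S 2 and 3 of 54, beside 8.83% and 7.01% of all genes, RVC over S 9 and 28 of 54, beside 26.2% and 23.7%, RVT over S 26 lower of 52, beside 21.9%, RVT over RVC 15 lower of 39, beside 14.8%), at a mean of 5 CPM (of 9 members, RV over S 0 lower, beside 1.72%, RVC over S 2 and 5, beside 22.9% and 22.1%, RVT over S 4 and 5, beside 31.4% and 22.2%, RVT over RVC 3 and 4, beside 17.3% and 11.3%), since other genes were then counted, and with equal weight (RV over S 1 higher, beside 3.69%, a share near that of the members).

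The log2 ratio of the member sum in S-gene-high over S-gene-zero cells (1.80, 1.84, 0.47 and 1.60 in S, RV, RVC and RVT) was 1.56 in RV, 1.12 in RVC and 0.31 in RVT with at most 4 G2/M UMIs, 2.05 in S, 2.03 in RV and 2.42 in RVT with at least 5 G1/S UMIs, 1.76 in S and 1.69 in RV with all barcodes of 1500 UMIs or more, 1.70 in S, 1.74 in RV and 0.40 in RVC without doublet removal, and 1.88 in S and 1.89 in RV with another seed. Member counts there were 6 higher and 0 lower in RVC and 0 and 0 in RVT with at most 4 G2/M UMIs, 4 lower in RVC with at least 5 G1/S UMIs (5.0% of all genes), 1 lower in RVC with all barcodes (0.866%), 0 lower in RVC with another seed (1.56%), 0 and 0 in RVC without doublet removal, and 1 lower in S, 0 in RVC and 0 in RVT with thinned UMIs. Single members and the sum of the others kept their value within the counting interval in 409 of 566 repeats. A reversal was counted only for sums and for members past 2-fold as reported. These were the sum of the others in RVT over S with TMM (-0.24), HIST1H2BD in S with thinned UMIs (0.27) and HIST1H2AC in RVT with at most 4 G2/M UMIs (0.067). Members under 2-fold whose sign turned, such as HIST1H1C in RVT with at most 4 G2/M UMIs, were counted as outside the interval. The cause was not tested. Depth limits the low members most: 3 UMIs are 0.118 CPM in RVT and 0.0513 in S.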
